A study of Mus musculus with 6 samples.

Results

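The conjugation enzymes of the mouse duodenal epithelium were examined: the glutathione S-transferases (Gst and the membrane-bound Mgst), the UDP-glucuronosyltransferases (Ugt1 and Ugt2) and the sulfotransferases (Sult). They were taken by symbol from the deposited table of gene expression, without a filter on expression, as all rows that begin with Gst and a family letter and number, Mgst and a number, Ugt1, Ugt2, or Sult and a number. The rule gave 60 of 22611 rows: 25 Gst and Mgst genes, 18 Ugt genes and 17 Sult genes. RNA had been sequenced from 3 libraries of WT mice and 3 libraries of littermates with a germline deletion of Esrra (Esrra-/-), all fed a high-fat diet. The libraries were made from epithelium that EDTA released from the duodenal end of the small intestine. The deletion was present in the whole body and not only in the intestine, mice of both sexes were used in the study, and neither the sex nor the age of each mouse is given in the sources used here. The study describes the libraries of each genotype as biological replicates.

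These enzymes attach a polar group to drugs, dietary toxins, bilirubin, steroids and products of oxidation. A Gst transfers glutathione to a reactive electrophile, and the product is trimmed to a mercapturate. A Ugt in the endoplasmic reticulum transfers glucuronic acid from UDP-glucuronate, and a cytosolic Sult transfers sulfate from the donor PAPS. The villus epithelium of the duodenum meets such compounds first and exports their conjugates through efflux transporters. Esrra encodes ESRRA, an orphan nuclear receptor that binds DNA at an extended half-site and regulates mitochondrial metabolism. The comparison here is of the conjugation genes with and without it.

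Values are FPKM, fragments scaled by transcript length and by a size of each library, and can be compared between genes because they are given per length. How the authors set that size is not given in the sources used here. The 10596 genes with a mean FPKM above 1 over the 6 libraries were tested together with limma on log2(FPKM + 0.1), a scale that understates the change of low genes. A gene was called at an unadjusted p under 0.05 when Esrra-/- and WT also differed by more than 0.58 on the log2 scale, with fold changes given as Esrra-/- over WT. Adjusted p-values are Benjamini-Hochberg values over all genes tested.

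Esrra itself stood at 49.4, 73.5 and 103.6 FPKM in the WT libraries and at 10.4, 9.42 and 8.72 FPKM in the Esrra-/- libraries, so the values match the labels. The number of reads behind each library is not known from FPKM. The third replicate of each genotype differed from the other 4 libraries. Their summed FPKM of 4 Y-linked genes was 0.0487 in WT replicate 3 and 0.222 in Esrra-/- replicate 3, against 27.3 to 46.7 in the others. Their FPKM over all rows also summed to the highest totals, 999902 and 901171, against 707094 to 818406. The epithelial identity was checked with marker genes. The villus enterocyte genes were abundant, the pancreatic acinar list summed to 2.44 to 3.65 FPKM and the gastric list to 0.537 to 1.68 FPKM. Immune markers were present, with sums from 294 FPKM in WT replicate 3 to 2085 FPKM in Esrra-/- replicate 3 and 716 to 1404 FPKM in the others, most of it Cd74 at 192 to 1883 FPKM. Of the 7 tested immune markers 0 were called for genotype. Of the duodenal markers Gata4 was at 71.2 to 97.9 FPKM, while Pdx1 was at 0.145 to 1.31 FPKM and Cybrd1 at 0.411 to 0.899 FPKM, low for markers of that end of the intestine.

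Of the 60 members, 35 passed the filter and were tested, 58.3% against 46.9% of all rows. The Gst and Mgst genes were mostly present, with 22 of 25 tested, the Ugt genes less so, with 10 of 18 tested, and the Sult genes were mostly silent, with 3 of 17 tested. A further 12 members were above 0 with a mean at or under 1 FPKM, and 13 were listed at 0 in all 6 libraries. Among the latter were 10 Sult genes, including the hydroxysteroid sulfotransferases Sult2a1 to Sult2a6 and the estrogen sulfotransferase Sult1e1. Of the 35 tested members, 34 were above 1 FPKM in every library, the exception being Ugt2a1.

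Some members share so much sequence that their values could not be assigned with confidence to one gene. In the coding transcripts of GENCODE M1 (mm9), 11 of the 35 tested members shared no 31-base stretch with another gene, 12 shared over 20% of theirs and 9 shared over 50%. The annotation the authors counted on is not named in the sources used here. The Ugt1a locus on chromosome 1 is the main case. Each Ugt1a transcript has its own first exon, which encodes the part of the enzyme that binds the substrate. All splice it to the same 4 exons, of which the last varies in length. The junction is shown for the 4 tested Ugt1a genes to show where the sequence of each gene meets the common sequence. The lower-case letters are the last 30 bases of each first exon and the capitals are the first 20 bases of the shared exon 2 (mm9, plus strand, exon 2 from chr1:90111619-90111750).
Ugt1a1: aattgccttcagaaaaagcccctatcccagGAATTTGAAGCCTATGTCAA
Ugt1a7c: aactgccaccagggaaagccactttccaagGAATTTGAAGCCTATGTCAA
Ugt1a9: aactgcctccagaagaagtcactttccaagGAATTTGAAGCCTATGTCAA
Ugt1a6a: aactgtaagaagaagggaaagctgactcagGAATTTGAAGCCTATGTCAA
The first exons lie at chr1:90108534-90109446 for Ugt1a1 and chr1:89991639-89992553 for Ugt1a7c, and they shared no 31-base stretch. Over whole transcripts the shared part was 58.5% for Ugt1a1, 72.8% for Ugt1a7c, 66.8% for Ugt1a9 and 88.5% for Ugt1a6a. The last exon of the Ugt1a7c model is longer than that of Ugt1a1, at 1876 against 871 bases, and reads from that extension are open to Ugt1a7c and to 1 long Ugt1a6a model.

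**Figure D1:**
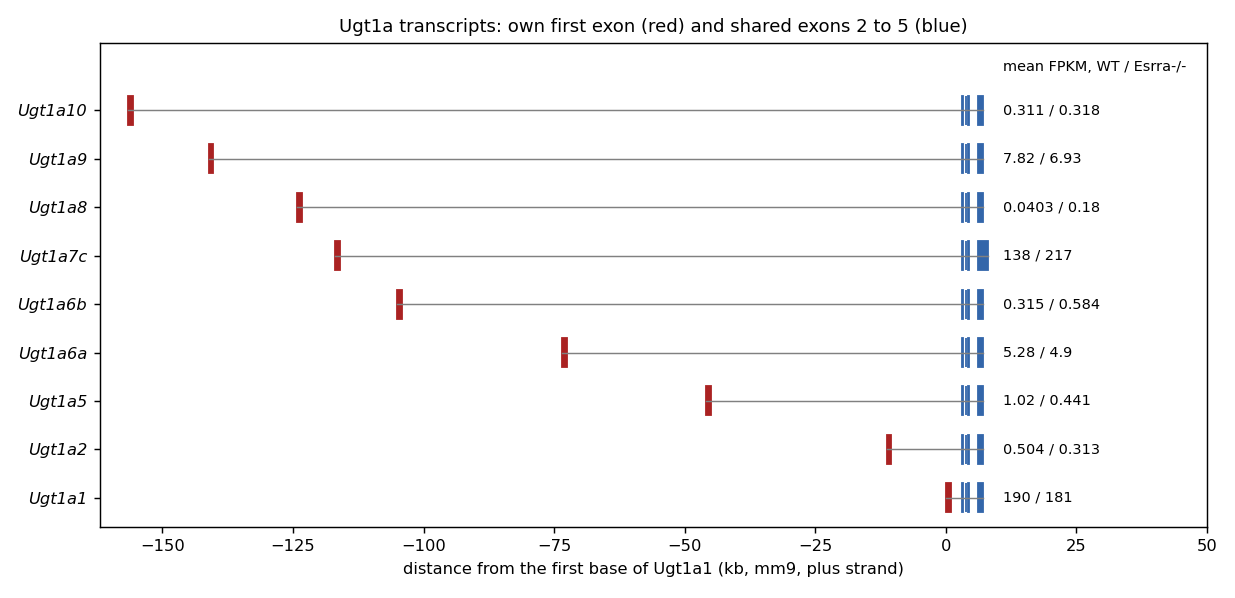
Exon models of the 9 Ugt1a transcripts in GENCODE M1, by distance in kb from the first base of Ugt1a1, with the mean FPKM of the 3 WT and 3 Esrra-/- libraries at the right. The first exons (red) are separate while exons 2 to 4 (blue) coincide, and exon 5 (blue) begins at the same base but varies in length. Ugt1a1 and Ugt1a7c hold nearly all of the FPKM.

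The Gsta genes on chromosome 9 are the other case. Gsta1, an alpha-class transferase that also reduces lipid hydroperoxides, differed at 2 of 672 coding bases from its neighbour Gm3776, which the rule does not take. Gsta1 and Gsta2 differed at 14 of 669 coding bases compared position by position, an identity of 97.9%. The stretch of coding bases 577 to 666 is shown because it holds 5 of those 14 differences. Capitals mark bases that differ from Gsta1, with positions counted from the first coding base.
Gsta1: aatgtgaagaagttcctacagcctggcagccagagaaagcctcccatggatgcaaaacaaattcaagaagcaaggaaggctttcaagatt
Gm3776: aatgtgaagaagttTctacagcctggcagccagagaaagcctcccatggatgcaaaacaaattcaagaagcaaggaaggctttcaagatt
Gsta2: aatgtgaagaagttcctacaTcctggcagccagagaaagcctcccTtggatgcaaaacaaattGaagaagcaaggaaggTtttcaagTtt
Of the 31-base stretches of Gsta1, 92.2% occurred in another gene, and of those of Gsta2 57.6%. Gstp1 and Gstp2 shared 73.0% and 73.4% of theirs, mostly with each other. Gsta4, Gstk1, Gsto1, Mgst1, Mgst2, Mgst3, Sult1b1, Sult1d1 and Sult2b1 shared none.

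The most abundant member was Gstp1, the pi-class transferase, at 703 ± 219 FPKM in WT (SD, n = 3) and 615 ± 95.8 FPKM in Esrra-/- (SD, n = 3). Gsto1, an omega-class enzyme that reduces dehydroascorbate and methylated arsenic, followed at 508 ± 71.8 and 497 ± 124 FPKM. Gsta1 stood at 466 ± 420.1 and 432 ± 162 FPKM, so its SD in WT was nearly as large as its mean. Gstp1 was above Gsto1 in each of the 6 libraries, whereas the order of Gsto1 and Gsta1 changed between libraries.

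The leading member of each remaining Gst family was lower. Mgst3, a membrane-bound enzyme of the glutathione transferase and peroxidase kind, was at 409 ± 134 FPKM in WT and 416 ± 132 FPKM in Esrra-/-. Gstm3 led the mu class at 239 ± 108 and 303 ± 52.7 FPKM. Gstk1, the kappa-class enzyme of mitochondria and peroxisomes, was at 161 ± 93.7 and 158 ± 25.9 FPKM. Gstt1, a theta-class enzyme, was at 67.5 ± 28.8 and 65.3 ± 18.0 FPKM. Gstz1, the maleylacetoacetate isomerase of tyrosine breakdown, was the lowest of these leaders at 37.1 ± 5.96 and 42.5 ± 5.70 FPKM.

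The Ugt genes were led by 3 members. Ugt2b34 was at 234 ± 65.3 FPKM in WT, Ugt1a1, the bilirubin glucuronosyltransferase, at 190.1 ± 57.1 FPKM, and Ugt1a7c, an enzyme of phenolic compounds, at 138 ± 7.45 FPKM. In Esrra-/- they were at 260.2 ± 78.3, 181 ± 18.1 and 217 ± 15.6 FPKM. The other 7 tested Ugt genes ranged from a mean of 51.4 FPKM for Ugt2a3 down to 1.02 FPKM for Ugt2a1, both named here after their values were seen.

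The tested Sult genes were abundant although they were few. Sult1b1, a sulfotransferase of thyroid hormone and phenols, was at 429 ± 117 FPKM in WT and 472 ± 140.1 FPKM in Esrra-/-. Sult2b1, which sulfates cholesterol and other sterols, was at 235 ± 81.9 and 252 ± 108 FPKM. Sult1d1, which acts on catecholamines and other phenols, was at 98.1 ± 20.9 and 132 ± 43.0 FPKM. Below them came a gap to Sult1a1, with a mean of 0.67 FPKM and a value above 1 in 1 library only. Ugt1a5 was likewise above 1 FPKM in 1 library only, at 1.99 FPKM in WT replicate 3.

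**Figure D2:**
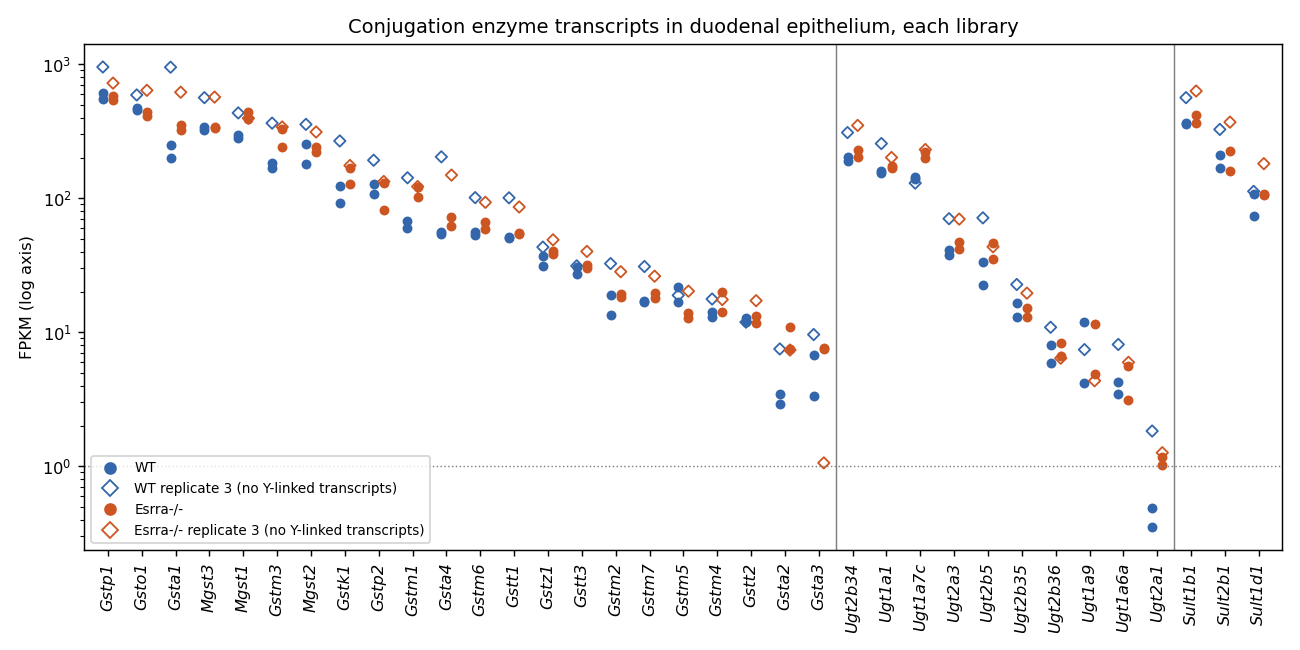
FPKM on a log axis of the 35 tested members in each library, ordered within the Gst and Mgst, Ugt and Sult classes by mean level. Blue marks WT and orange Esrra-/-, open diamonds mark the replicate 3 libraries, which lack Y-linked transcripts, and the dotted line is at 1 FPKM. In 24 of the 35 genes both diamonds lie above the other 4 points.

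Few of these genes were called for genotype. At the thresholds used, 2 of the 35 tested members were called higher in Esrra-/-, against 1.35% of all genes tested, and 0 were called lower, against 3.28% of all genes. The members called higher were Ugt1a7c and Gsta2. None of the 35 had an adjusted p under 0.05, the smallest being 0.238. An unadjusted p under 0.05 was found for 2 members (5.71%), beside 10.8% of all genes tested. The median log2 fold change of the members was 0.09, beside 0.03 over all genes tested, and 24 of 35 were above 0 (68.6%), beside 54.3% of all genes. The sign of this median rested on single libraries. It was -0.08 without WT replicate 1 and -0.10 without Esrra-/- replicate 3, with 15 of 35 above 0 in both, -0.01 without WT replicate 2 (17 of 35) and 0.33 without WT replicate 3 (31 of 35). Without Esrra-/- replicate 1 it was 0.20 and without Esrra-/- replicate 2 it was 0.17. The median was 0.09 in the Gst and Mgst genes, 0.04 in the Ugt genes and 0.13 in the Sult genes. Over all genes 348 were called lower and 143 higher. When all libraries were scaled to equal FPKM sums the median of all genes rose to 0.14 and the split became 134 lower and 269 higher. On that scale 3 members were called higher, Gstm1 with Gsta2 and Ugt1a7c, and 0 lower.

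Ugt1a7c stood at 144, 139 and 129.8 FPKM in the WT libraries and at 200.3, 221 and 231 FPKM in the Esrra-/- libraries. Every Esrra-/- library was above every WT library. It was the only tested member whose genotypes did not overlap, 1 of 35, where 17.6% of all genes tested did not overlap. The log2 fold change was 0.66 ± 0.14 (SE), with an unadjusted p of 0.00206 and an adjusted p of 0.238. Leaving out each library in turn gave 0.61 to 0.71, and the call was kept in each. Without both libraries that lack Y-linked transcripts it was 0.57, just under the threshold of 0.58.

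The other 3 tested Ugt1a genes were not called. Ugt1a1 was at 159, 155 and 256 FPKM in WT and at 167, 175 and 201 FPKM in Esrra-/-. The groups overlapped, with a log2 fold change of -0.04 ± 0.23 (SE) and an adjusted p of 0.967. Without both libraries that lack Y-linked transcripts, and with equal FPKM sums, its log2 fold change turned positive, at 0.12 and 0.08. Ugt1a7c made up 46.3%, 44.6% and 32.0% of the summed Ugt1a FPKM in the WT libraries and 53.1%, 53.3% and 52.0% in the Esrra-/- libraries. Its share was higher in each Esrra-/- library, a description given without a test, since reads of the shared exons could be assigned to either gene. The sum over the locus was 312, 312 and 406 FPKM in WT and 377, 415 and 444 FPKM in Esrra-/-, and these overlapped.

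Gsta2 stood at 3.48, 2.91 and 7.51 FPKM in the WT libraries and at 7.49, 10.9 and 7.37 FPKM in the Esrra-/- libraries. WT replicates 1 and 2 were low, and WT replicate 3 fell among the Esrra-/- libraries, so the groups overlapped. The log2 fold change was 0.98 ± 0.35 (SE), with an unadjusted p of 0.0256 and an adjusted p of 0.394. The call was lost without WT replicate 1, WT replicate 2 or Esrra-/- replicate 2. The log2 fold change was 0.84, 0.71 and 0.79 in these fits, still beyond 0.58, while the unadjusted p rose to 0.081, 0.080 and 0.081. Its mean of 6.61 FPKM over the 6 libraries stood beside 449 FPKM for its near copy Gsta1. The sharing of reads with Gsta1, Gm3776 and Gm10639 makes its value uncertain.

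The other 33 tested members ranged from -0.59 for Gsta3 to 0.64 for Ugt2a1, with unadjusted p-values of 0.161 or more. Gsta3 was at 3.33, 6.76 and 9.61 FPKM in WT and at 7.59, 7.49 and 1.06 FPKM in Esrra-/-. The groups overlapped, and Esrra-/- replicate 3 was the lowest library. Gstp1 had a log2 fold change of -0.16 ± 0.26 (SE), Gsto1 of -0.05 ± 0.23 and Sult1b1 of 0.13 ± 0.28.

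**Figure D3:**
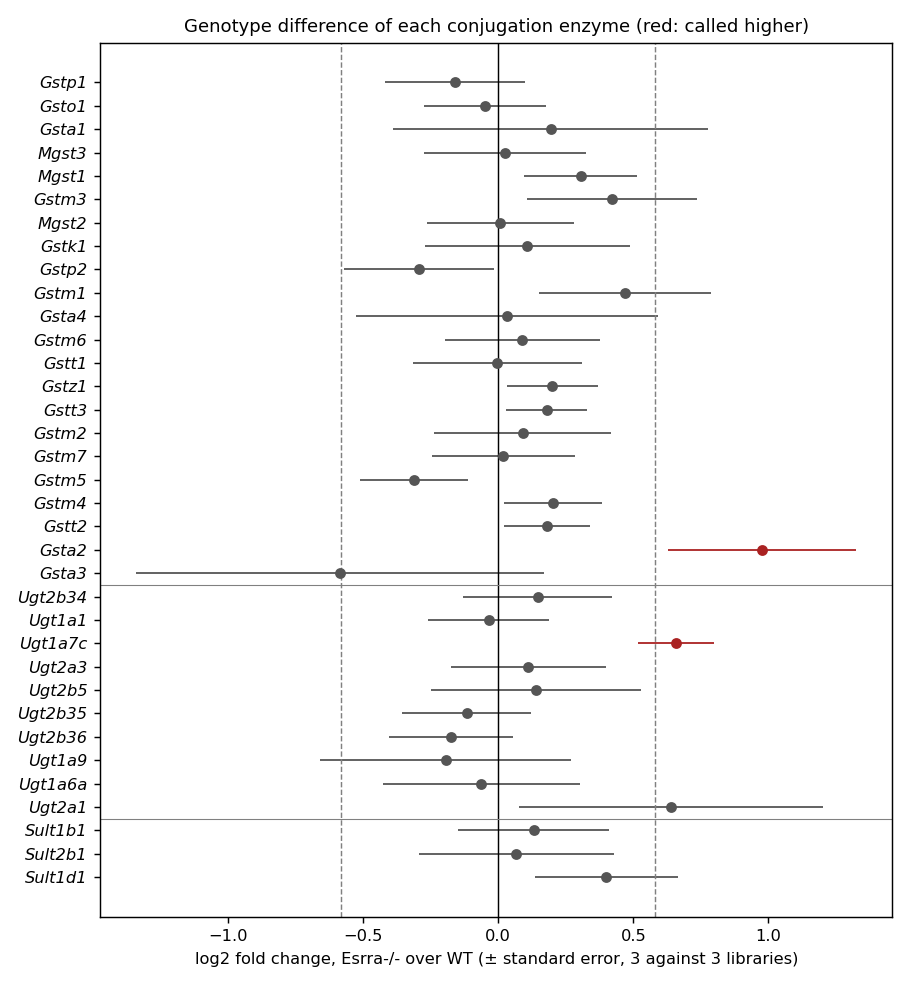
Log2 fold change, Esrra-/- over WT, of the 35 tested members, with bars for the standard error (3 against 3 libraries) and dashed lines at 0.58 in each direction. Gsta2 (0.98) and Ugt1a7c (0.66), in red, were called higher, and no member was called lower.

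A difference with a larger median ran within the genotypes. Both libraries without Y-linked transcripts were above all 4 others in 24 of the 35 tested members, against 18.9% of all genes tested, and below all 4 in 0. A fit with genotype and the absence of Y-linked transcripts as terms called 16 members higher in those 2 libraries, where 5.32% of all genes were called higher, and 0 lower, where 4.68% were. The 16 were 11 Gst and Mgst genes, 3 Ugt genes and 2 Sult genes. The median difference of the members was 0.59 on the log2 scale, beside 0.03 over all genes, and it was 0.57 in the Gst and Mgst genes, 0.62 in the Ugt genes and 0.66 in the Sult genes. An unadjusted p under 0.05 was found for 23 members, beside 28.3% of all genes. An adjusted p under 0.05 was found for 0 members, the smallest being 0.0581, beside 0.142% of all genes. It was found for 9 of 34 members when only genes above 1 FPKM in all 6 libraries were fitted, beside 3.92% of all genes, and for 4 of 35 with equal FPKM sums, beside 14.5%. This comparison was added after the data were seen.

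On the FPKM as deposited the largest of these differences were in the alpha class. With quantile normalization Ugt2a1 had the largest, at 1.27, above Gsta4 at 1.23 and Gsta1 at 1.10. Gsta4, a transferase of 4-hydroxynonenal and other products of lipid peroxidation, was at 56.1, 54.1 and 204 FPKM in WT and at 61.9, 71.9 and 149 FPKM in Esrra-/-. Gsta1 was at 249, 199.9 and 951 FPKM in WT and at 323, 354 and 618 FPKM in Esrra-/-. In both genes the third library of each genotype was far above the other 4. The differences were 1.52 for Gsta4 and 1.48 for Gsta1 on the log2 scale, with adjusted p-values of 0.0581. Gm3776 had the same profile as Gsta1, at 255, 195 and 825 FPKM in WT and 311, 362 and 661 FPKM in Esrra-/-. Gsta4 shared no 31-base stretch with another GENCODE M1 coding transcript.

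Members of the other classes differed in whether replicate 3 was high in both genotypes. Mgst3 was at 324, 341 and 563 FPKM in WT and at 336, 343 and 569 FPKM in Esrra-/-, a difference of 0.75 with the genotypes nearly equal. Sult1b1 was at 359, 364 and 564 FPKM in WT and at 418, 367 and 631 FPKM in Esrra-/-, a difference of 0.66. Sult2b1 was at 211, 168 and 326 FPKM in WT and at 226, 159 and 369.9 FPKM in Esrra-/-, a difference of 0.88. In each of these 3 genes both replicate 3 libraries were the highest. Gstk1 was at 91.8, 124 and 268 FPKM in WT and at 169, 128 and 176 FPKM in Esrra-/-, so replicate 3 stood apart in WT and was close to replicate 1 in Esrra-/-. Mgst1 was at 298, 279.9 and 433 FPKM in WT and at 393, 439 and 396 FPKM in Esrra-/-, where replicate 3 lay between the other two. Among the Ugt genes Ugt2b34 had replicate 3 highest in both genotypes, at 191, 202 and 309 FPKM in WT and 227, 204 and 349.6 FPKM in Esrra-/-. Ugt1a7c did not, with a difference of 0.00, which was -0.04, -0.32 and -0.33 with median-ratio scaling, quantile normalization and equal FPKM sums. On the FPKM as deposited 33 of the 35 tested members had a difference above 0, the others being Gsta3 (-0.86) and Ugt1a9 (-0.35). Under the same 3 scalings 32, 31 and 25 members were above 0.

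**Figure D4:**
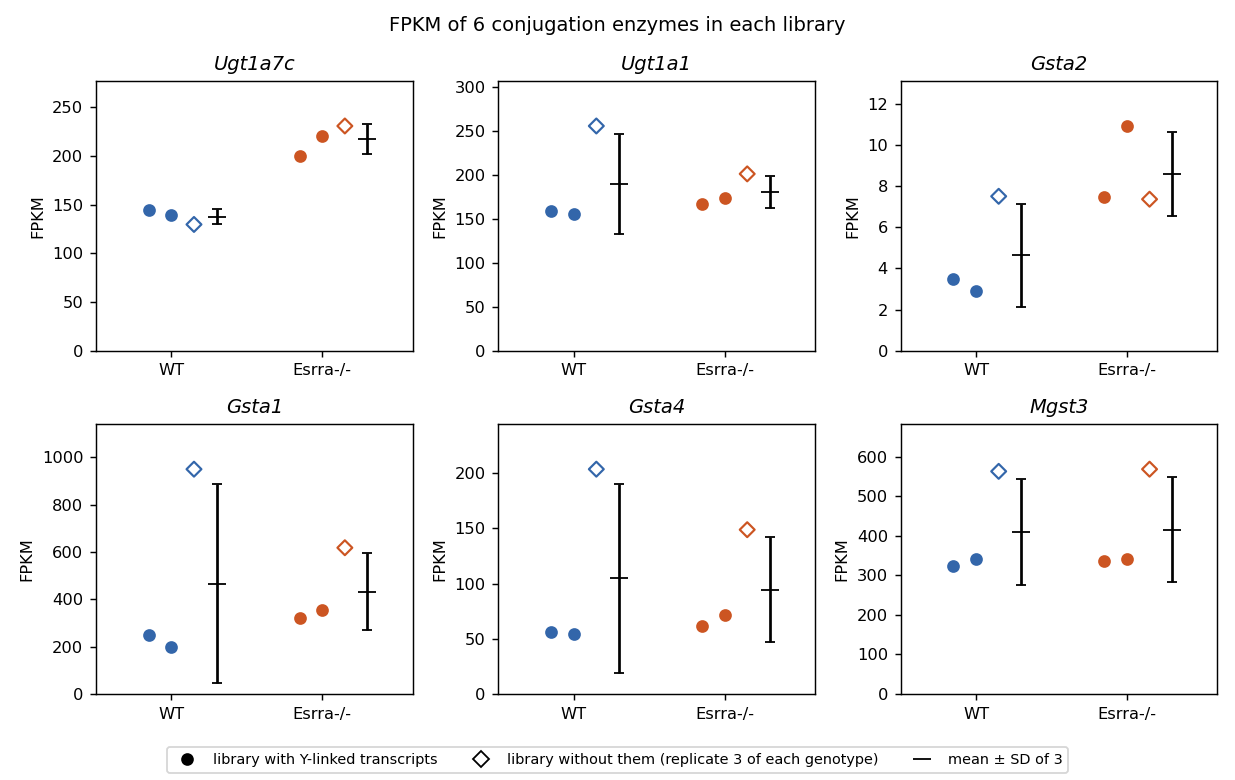
FPKM of 6 members in each library, on axes that start at 0, with the mean ± SD of the 3 libraries of each genotype beside the points. Ugt1a7c separates the genotypes (129.8 to 144 against 200.3 to 231 FPKM), whereas Gsta1, Gsta4 and Mgst3 separate the replicate 3 libraries (diamonds) from the other 4.

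The size of this difference depended on the scaling between libraries. With median-ratio scaling 15 members were called higher in the 2 libraries, beside 4.27% of all genes. With quantile normalization 5 were, beside 3.47%, and with equal FPKM sums 2, Gsta1 and Gsta4, beside 1.09%. The median of the members was 0.55, 0.33 and 0.25 under these scalings, while the median of all genes was -0.01, 0.00 and -0.30. Relative to all genes the members were therefore higher under each scaling. Gsta1 and Gsta4 were called under all of them, with differences of at least 1.10 and 1.18. With equal FPKM sums their adjusted p-values were 0.0447 and 0.0354.

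**Figure D5:**
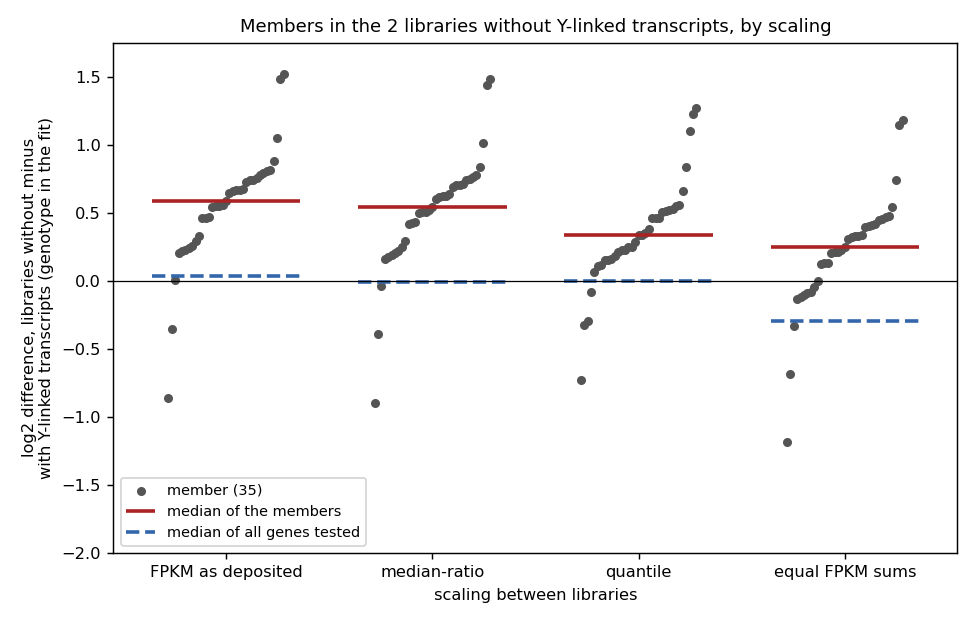
Log2 difference between the 2 libraries without and the 4 libraries with Y-linked transcripts, with genotype in the fit, for each of the 35 tested members under 4 scalings. The red line is the median of the members (0.59, 0.55, 0.33 and 0.25 from left to right) and the dashed blue line the median of all genes tested (0.03, -0.01, 0.00 and -0.30).

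Marker genes of cell types were compared between the same libraries. The summed FPKM of the 12 villus enterocyte markers was 63977 and 65946 in them, against 38617 to 59008 in the others, and 4 of the 12 were called higher. On the FPKM as deposited the median log2 difference of the villus list was 0.49, beside 0.59 for the members and 0.03 over all genes. As a share of all FPKM the list overlapped, at 6.40% and 7.32% against 4.72% to 7.91%, and with equal FPKM sums 1 of the 12 was called higher. The 12 crypt and proliferation markers summed to 251 and 132 FPKM against 202 to 390 FPKM, with 5 called lower. The 7 Paneth cell markers in the table were all called lower, with sums of 10641 and 2049 FPKM against 6766 to 23598 FPKM. With equal FPKM sums 9 crypt markers and again 7 Paneth markers were called lower, on a scale where the median difference of all genes was -0.30. With quantile normalization, where that median was 0.00, 3 crypt markers and 7 Paneth markers were called lower. Markers of position along the intestine were also compared. The ileum-end list summed to 1011 and 1264 FPKM against 614 to 904 FPKM, with 2 of 5 tested genes called higher, Osta (0.86) and Cubn (2.44). As a share of all FPKM this list overlapped as well, at 0.101% and 0.140% against 0.0863% to 0.121%, and with equal FPKM sums 1 gene was called. Cubn was at 120.2 and 18.0 FPKM against 3.72 to 17.9 FPKM, so that WT replicate 3 alone stood far from the rest. Fabp6 and Slc10a2, defining genes of the ileum, were low in all libraries. Fabp6 was at 0.212 and 0.647 FPKM against 0 to 4.69 FPKM, and Slc10a2 at 0.128 and 0.604 FPKM against 0.357 to 0.796 FPKM. The duodenum-end list summed to 108 and 100.1 FPKM against 78.3 to 87.5 FPKM, or 0.0108% and 0.0111% of all FPKM against 0.00961% to 0.0124%, with 0 of 3 called. On the FPKM as deposited the median log2 difference was 0.50 for the ileum-end list and 0.53 for the duodenum-end list. The part of these cell types and positions in the difference was not tested, and in bulk samples fewer cells of a type and less RNA per cell cannot be told apart. Sex and anything else that sets the 2 libraries apart cannot be told apart either.

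Some of the same markers were called for genotype. The villus list summed to 40730, 38617 and 63977 FPKM in WT and to 59008, 48593 and 65946 FPKM in Esrra-/-, with 0 of 12 called. Of the crypt markers 2 of 12, Smoc2 and Cdk1, were called lower in Esrra-/-, and of the Paneth markers 4 of 7, Lyz1, Defa17, Defa24 and Ang4. Their part in the values of Ugt1a7c and Gsta2 was not tested.

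Because 1 of the 2 libraries was WT and the other Esrra-/-, the genotype difference could also be read without them. In the 4 libraries with Y-linked transcripts, 2 against 2, 5 members were called higher in Esrra-/- and 0 lower, where 2.02% of all genes were called higher. They were Gsta1 (0.60), Gsta2 (1.48), Gstm1 (0.81), Gstm3 (0.68) and Ugt2a1 (1.21). Leaving out WT replicate 3 alone gave 7 members called higher, where again 2.02% of all genes were called higher: Gsta1 (0.89), Gsta2 (1.38), Gstm1 (0.85), Gstm3 (0.77), Ugt1a7c (0.61), Ugt2a1 (1.27) and Ugt2b5 (0.60). None had an adjusted p under 0.05 in either fit. With WT replicate 1 or WT replicate 2 left out instead, 1 member was called, Ugt1a7c.

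Of the 7 tested mu-class genes 4, Gstm1, Gstm3, Gstm6 and Gstm7, had WT replicates 1 and 2 below all Esrra-/- libraries and WT replicate 3 above them. This order, described after the values were seen, was found in 12 of the 35 tested members and in 2.44% of all genes tested. Gstm3 was at 168, 185 and 364 FPKM in WT and at 243, 327 and 340.3 FPKM in Esrra-/-. Gstm1 was at 60.4, 67.2 and 142 FPKM in WT and at 103, 122 and 122 FPKM in Esrra-/-. Gstm5 was at 16.8, 21.8 and 18.9 FPKM in WT and at 14.0, 12.7 and 20.3 FPKM in Esrra-/-, with a log2 fold change of -0.31. With all 6 libraries the log2 fold changes were 0.42 ± 0.32 for Gstm3 and 0.47 ± 0.32 for Gstm1 (SE), with adjusted p-values of 0.658 and 0.621.

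The interaction of genotype with the absence of Y-linked transcripts was fitted for the same reason. It had an unadjusted p under 0.05 in 9 members, where 5.29% of all genes did, and was negative in all 9, beside 46.5% of the genes with such a p. These were Gsta1, Gsta2, Gsta3, Gsta4, Gstk1, Gstm1, Mgst1, Ugt2a1 and Ugt2b5. A negative value means that the genotype difference was lower in the pair of libraries without Y-linked transcripts than in the other 4. For Gsta2 the log2 fold change was 1.48 in the 4 libraries with Y-linked transcripts and -0.03 in the pair without them, and for Gsta1 it was 0.60 and -0.62. The adjusted p was 0.495 or more in every member. Only 1 library of each genotype lacked Y-linked transcripts, so the difference in that pair has no replicate check.

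The genes that supply and finish these reactions were described from lists of symbols. The 9 genes of UDP-glucuronate supply, led by Ugdh, which oxidizes UDP-glucose, were tested and 0 were called. Ugdh was at 172 to 224 FPKM in WT and 202 to 235 FPKM in Esrra-/-. Of 9 tested genes of sulfate and PAPS supply 0 were called. The most abundant was Bpnt1, a phosphatase that clears the product left by PAPS, at 219.6 to 284 FPKM in WT and 194 to 292 FPKM in Esrra-/-. Papss2, a PAPS synthase, ranged from 84.9 to 346 FPKM without following genotype.

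Of 8 tested genes of glutathione synthesis and recycling 1 was called higher and 1 lower. Chac2, a gamma-glutamylcyclotransferase that degrades glutathione, was at 7.44, 6.99 and 7.42 FPKM in WT and at 10.9, 9.99 and 15.6 FPKM in Esrra-/-. Its log2 fold change was 0.70 ± 0.18 (SE, adjusted p = 0.290). Oplah, the 5-oxoprolinase that returns glutamate from the same cycle, was at 6.93, 4.31 and 5.39 FPKM in WT and at 3.38, 1.53 and 2.62 FPKM in Esrra-/-. Its log2 fold change was -1.15 ± 0.31 (SE, adjusted p = 0.307). Neither pair of groups overlapped. Of 10 tested genes of the mercapturate steps 0 were called for genotype. On the FPKM as deposited 7 were called higher in the libraries without Y-linked transcripts, where 5.32% of all genes were. That count was not repeated for this list under the other scalings. The most abundant was Anpep, aminopeptidase N, at 2520.0, 2518 and 2533 FPKM in WT and at 3395, 2087 and 4665 FPKM in Esrra-/-. Ggt1, the gamma-glutamyltransferase that trims glutathione conjugates, was at 543, 497 and 770.1 FPKM in WT and at 666, 616 and 1016 FPKM in Esrra-/-.

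Of 7 tested efflux transporters 1 was called higher in Esrra-/-. Abcc6, of the ABCC family, was at 1.62, 2.06 and 3.16 FPKM in WT and 4.64, 3.27 and 2.97 FPKM in Esrra-/-, an overlapping difference of 0.67 (adjusted p = 0.455). Abcg2, an efflux pump that carries sulfate conjugates and the most abundant of the list, was at 80.8, 70.7 and 66.0 FPKM in WT and at 88.7, 107 and 90.8 FPKM in Esrra-/-. The groups did not overlap, with a difference of 0.40 (adjusted p = 0.410) that was under 0.58. Abcc3, a basolateral exporter of glucuronides, was at 13.5 to 22.3 FPKM in WT and 22.4 to 25.0 FPKM in Esrra-/-, with a difference of 0.53 (adjusted p = 0.405). Abcc2, which exports glucuronides and glutathione conjugates to the lumen, was at 32.6 to 41.8 FPKM in WT and 37.6 to 74.4 FPKM in Esrra-/-. Abcb1a, the drug pump P-glycoprotein, was at 36.2, 30.5 and 102 FPKM in WT and at 40.9, 29.9 and 116 FPKM in Esrra-/-. Like Gsta1 and Gsta4 it was far higher in the replicate 3 libraries, by 1.67 on the log2 scale (adjusted p = 0.0422). Of the 5 tested hydrolases that remove conjugates 1, the arylsulfatase gene Arsa, was called higher in Esrra-/- (0.63, adjusted p = 0.407).

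Among 23 tested transcription factors of the xenobiotic response 0 were called for genotype. Nfe2l2, which encodes NRF2, the activator of many Gst genes, was at 177 to 238 FPKM in WT and 167 to 203 FPKM in Esrra-/-. Hnf4a, a hepatic and intestinal factor, was at 166 to 194 FPKM in WT and 175 to 186 FPKM in Esrra-/-. Of the NRF2 targets outside the members 0 of 12 tested were called, of the AHR targets 0 of 3 and of the PXR and CAR targets 0 of 11. The median log2 fold change was 0.02 for the NRF2 targets (6 of 12 above 0), -0.09 for the AHR targets (1 of 3) and 0.53 for the PXR and CAR targets (10 of 11). Over all genes tested it was 0.03, with 54.3% above 0. These medians were not compared by a test or recomputed with libraries left out. The summed FPKM of the 12 listed PXR and CAR targets overlapped, at 847, 1115 and 1357 in WT and 1211, 1267 and 2099 in Esrra-/-. Prdx1, a peroxiredoxin and the most abundant NRF2 target, was at 707, 801 and 1087 FPKM in WT and at 626, 622 and 789.5 FPKM in Esrra-/-. The most abundant AHR target was Nqo1, a quinone reductase, at 25.6 to 37.0 FPKM in WT and 26.9 to 31.5 FPKM in Esrra-/-. Aldh1a1, a retinaldehyde dehydrogenase and the most abundant of the last list, was at 219.5, 309.5 and 355 FPKM in WT and at 350.0, 400.0 and 475 FPKM in Esrra-/-. In the libraries without Y-linked transcripts 5 of those 11 PXR and CAR targets were called higher, Cyp3a11, Cyp3a25, Cyp2c65, Abcb1a and Ces2a. The median difference of the 11 was 0.60, beside 0.59 for the members. It was 0.62 for the genes of the mercapturate steps. In the other lists it ran from -0.10 for the hydrolases to 0.32 for glutathione synthesis and recycling. The other lists were counted in the same way, where 5.32% of all genes were called higher. Called higher there were 2 of 9 genes of sulfate and PAPS supply, 2 of 8 of glutathione synthesis and recycling, 1 of 7 efflux transporters, 1 of 12 NRF2 targets and 2 of 23 transcription factors. The lists share genes. The efflux transporter is Abcb1a, also counted among the PXR and CAR targets, and the NRF2 target is Gclm, also counted among the glutathione genes. None was called higher of 9 genes of UDP-glucuronate supply, 5 hydrolases, 3 AHR targets and 7 enzymes of other conjugations, and 1 gene each of the first and the last of these 4 lists was called lower. The counts of these lists are on the FPKM as deposited. They were not repeated under the other scalings, where fewer of the members were called.

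The sequence upstream of the members was searched for motifs of NRF2, AHR and ESRRA. The window was the 250 bases before each start in RefSeq (GRCm38.p6), on both strands, and 53 of the 60 members had one. The extended half-site AAGGTCA was found in 6 of the 53 (11.3%), beside 4.70% of all genes with a window, and in none of the members called for genotype. The 3 tested genes with it were Gstk1, Ugt2b36 and Ugt2b5. The half-site AGGTCA, which AAGGTCA contains, was found in 10 (18.9%), beside 15.8% of all genes. The antioxidant response element core TGACNNNGC, which NRF2 binds, was found in 4 (7.55%), beside 11.5%, and the xenobiotic response element core GCGTG, which AHR binds, in 10 (18.9%), beside 30.9%. Of the 33 tested members with a window, AAGGTCA was found in 3 (9.09%), AGGTCA in 7 (21.2%), TGACNNNGC in 4 (12.1%) and GCGTG in 8 (24.2%).

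The windows of the 2 members called for genotype and of Ugt1a1, which shares the locus with Ugt1a7c but had its own level, are shown. Capitals mark AGGTCA in the Ugt1a windows and GCGTG in the Gsta2 window. They lie at chr1:88094751-88095000 on the plus strand for Ugt1a7c, chr1:88211709-88211958 on the plus strand for Ugt1a1 and chr9:78347146-78347395 on the minus strand for Gsta2.
Ugt1a7c: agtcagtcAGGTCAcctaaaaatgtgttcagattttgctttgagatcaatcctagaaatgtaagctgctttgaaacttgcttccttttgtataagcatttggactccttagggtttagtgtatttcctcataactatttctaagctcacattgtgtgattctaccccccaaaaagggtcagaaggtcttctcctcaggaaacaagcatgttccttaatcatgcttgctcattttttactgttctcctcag
Ugt1a1: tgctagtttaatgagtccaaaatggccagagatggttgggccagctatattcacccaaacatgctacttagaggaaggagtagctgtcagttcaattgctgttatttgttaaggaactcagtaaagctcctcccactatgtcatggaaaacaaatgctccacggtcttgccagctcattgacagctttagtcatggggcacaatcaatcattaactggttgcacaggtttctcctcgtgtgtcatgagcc
Gsta2: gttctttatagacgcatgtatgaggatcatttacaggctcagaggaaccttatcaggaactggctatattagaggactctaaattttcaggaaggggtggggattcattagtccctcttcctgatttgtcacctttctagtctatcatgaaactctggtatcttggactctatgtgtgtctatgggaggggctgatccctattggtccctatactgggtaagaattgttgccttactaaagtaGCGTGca
The half-site of Ugt1a7c begins 242 bases before the start, and the GCGTG of Gsta2 begins 7 bases before it. The Ugt1a1 window holds no AGGTCA. A match is a description of the letters and does not show binding.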

How the data were processed

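RNA-seq had been done on duodenal epithelium of 3 WT and 3 Esrra-/- mice. Reads were checked with FastQC 0.11.3 and quantified with kallisto 2.1.0 against mm9, per the labels and the study's methods, and DESeq2 2.2.1 served to calculate FPKM. The authors deposited FPKM values for 22611 genes in 6 libraries. A second table holds the authors' own comparison (mean counts, fold changes and p-values) and was not used. FPKM do not give the depth of a library.

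Groups were taken from the sample titles. Members were taken by symbol. The members and the lists of other genes were chosen with earlier results of these data known. For the 10596 genes whose FPKM averaged above 1, log2(FPKM + 0.1) was fitted with limma 3.58.1 in R 4.3.3 (lmFit, then eBayes with trend, no covariate) and Benjamini-Hochberg adjustment. The fit was tested on simulated data. No count test was run, because the values are not counts. The libraries without Y-linked transcripts (summed FPKM of 4 genes under 1) entered as a term in a further fit. Shared sequence was counted as 31-base stretches of GENCODE M1 coding transcripts.

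Named were the called members, the 3 most abundant of each class, the leader of each family, members whose groups did not overlap with a log2 fold change beyond 0.3, and the called genes of the lists or, where none was called, the most abundant. Gm3776, Gm10639, Gsta3, Gsta4, Gstm1, Gstm5, Gstm6, Gstm7, Mgst1, Ugt1a9, Ugt2a1, Ugt2a3, Ugt2b5, Abcb1a, Abcc2, Abcc3, Abcg2, Cd74, Ggt1, Papss2, Hnf4a, the duodenal markers and the genes named for motifs or for the libraries without Y-linked transcripts were chosen after their values were seen. Replicate numbers are shared between the genotypes in the labels. The alternatives were another pseudocount, other filters, median-ratio and quantile scaling, no trend, the replicate block, other call rules, each library left out, both libraries without Y-linked transcripts left out or as a covariate and, chosen after the data were seen, equal FPKM sums.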

Additional observations from a re-analysis of the deposited data

How the results depend on the processing

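The count of members called lower was 0 under every alternative run. The count called higher, 2 with all libraries, ran from 1 to 7 when each library was left out, was 5 without both libraries that lack Y-linked transcripts and was 0 at an adjusted p under 0.05, where 2 members had an unadjusted p under 0.05. Genes called lower numbered 348, with 528 without a filter, 134 with equal FPKM sums, 2 at an adjusted p under 0.05, 688 with no minimum fold and 252 to 537 with each library left out. Genes called higher numbered 143, with 277, 269, 2 and 456 under the same 4 settings and 146 to 214 with each library left out. Of the members, 16 were higher in the libraries without Y-linked transcripts, with 5 under quantile normalization and 2 with equal FPKM sums, and 1 was lower, Sult1a1, without a filter. The log2 fold change of Gsto1 turned to 0.076 with quantile normalization and 0.067 with equal FPKM sums, that of Ugt1a1 to 0.120 without both libraries and 0.080 with equal FPKM sums, and that of Gstt1 to 0.109 and 0.113 under the same 2 settings. Over the fits that each omitted 1 library the log2 fold change ran from -0.316 to 0.081 for Gstp1, from -0.244 to 0.069 for Gsto1, from -0.234 to 0.891 for Gsta1, from -0.098 to 0.345 for Sult1b1, from -0.255 to 0.355 for Sult2b1, from -0.087 to 0.364 for Ugt2b34, from -0.161 to 0.199 for Ugt1a1, from -0.223 to 0.279 for Mgst3, from -0.221 to 0.551 for Gstk1 and from -0.218 to 0.325 for Gstt1. The cause was not tested. Same-numbered libraries did not all deviate together (correlations of 0.0116, 0.263 and 0.376), so the numbers were not taken as pairs. With the replicate block 2 members were called higher and 0 lower, and 192 genes higher and 441 lower.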

Other observations

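WT replicate 2 differed from the other libraries in Cyp1a1, the cytochrome that AHR ligands induce, which was chosen here after its value was seen. It stood at 47.6 FPKM there and at 0.0254 to 1.15 FPKM in the other 5 libraries. Of the other genes linked to AHR, Ahrr was also highest there, at 0.365 FPKM against 0 to 0.0878 FPKM, as was Tiparp, at 7.95 FPKM against 6.81 to 7.77 FPKM. Cyp1a2, at 0 FPKM against 0 to 0.0603 FPKM, and Cyp1b1, at 0.0162 FPKM against 0 to 0.0312 FPKM, were not. Ahrr, Cyp1a2 and Cyp1b1 were under 1 FPKM in every library. Ugt1a6a was at 4.28 FPKM in WT replicate 2 against 3.12 to 8.11 FPKM in the others, and Nqo1, outside the members, at 25.6 FPKM against 26.9 to 37.0 FPKM.

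On the FPKM as deposited the members also varied more from library to library than other genes. This range is not separate from the replicate 3 difference, since both those libraries were above the other 4 in 24 of the 35. The highest library was a median of 1.89 times the lowest over the 35 tested members, beside 1.58 times over the genes tested that were above 0 in every library. The widest ranges were 9.07 times for Gsta3, 5.20 times for Ugt2a1 and 4.76 times for Gsta1. All members together made up 0.505% to 0.732% of the summed FPKM in WT and 0.624% to 0.742% in Esrra-/-.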
